A study of Homo sapiens with 3 samples.

Results

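The DNA replication fork and chromatin assembly genes are 42 genes for the proteins that unwind DNA, copy it and pack the copies into chromatin. They were found on the arrays by the RefSeq accession of each probe, and 41 of the 42 had a probe, among 22439 genes with a RefSeq symbol in all. *POLA2*, a subunit of DNA polymerase alpha, had no probe with a matching accession and has no value. RNA came from A549, an established cell line from a human lung adenocarcinoma, and was hybridized to Agilent arrays of 1 colour. There were 3 arrays, 1 for cells given the transfection reagent alone (mock), 1 for cells transfected with *miR-139-5p* and 1 for cells transfected with *miR-139-3p*, with precursors at 10 nM, Lipofectamine RNAiMAX as the reagent and RPMI as the medium. The mock cells received no control RNA, so effects of carrying any small RNA are part of each comparison with mock. Each condition has a single array, so no test was possible and no p-value is given.

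Slide 1, read in scan 1, carried the arrays of mock and *miR-139-5p*, while that of *miR-139-3p* was on slide 2 and came from scan 2. For *miR-139-3p*, the slide and the transfection therefore cannot be told apart. The keratin genes *KRT8* and *KRT18*, which mark epithelial cells, were well above background on the 3 arrays, as were *KRT19*, *EPCAM* and *CDH1*. These markers also differed between arrays, with log2 differences from mock after *miR-139-3p* of -0.74 for *KRT8*, -0.84 for *KRT18*, 0.18 for *KRT19*, 0.97 for *EPCAM* and 0.36 for *CDH1*. After *miR-139-5p* 4 of the 5 were below -0.5 and *EPCAM* was at 0.17. Of the 4 genes listed for the alveolar lineage, *NKX2-1* and *SFTPB* had no value, *SFTPC* was dim, with signals of 0.185 in mock, 0.127 after *miR-139-5p* and 0.0946 after *miR-139-3p*, and *AGER* was measured by 1 of its 3 probes, only in mock and after *miR-139-3p*. All 5 epithelial markers were thus measured on the 3 arrays. Of the alveolar list only *SFTPC* was, and its signal was dim.

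At a replication fork, the helicase made of CDC45, the MCM ring and the GINS complex opens the double strand, and DNA polymerases extend the new strands while the RFC complex loads the ring-shaped clamp PCNA. RPA coats the exposed single strand, FEN1, DNA2 and LIG1 finish the lagging strand, and CAF-1 with ASF1 proteins places histones on the new DNA. Many of these genes are transcribed in proliferating cells under the control of E2F factors, while origin recognition proteins also mark where replication starts.

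Both transfected RNAs come from the opposite arms of 1 hairpin, transcribed from *MIR139* on the minus strand of chromosome 11. Their mature sequences from RefSeq (GRCh38.p14) are shown because the precursors were made to yield them, with the seed, bases 2 to 8, in capitals.
miR-139-3p: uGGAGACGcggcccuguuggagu
miR-139-5p: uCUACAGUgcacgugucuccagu
The first lies at chr11:72615066-72615088 and the second at chr11:72615102-72615124. Each has 23 bases, and their seeds differ. Whether the transcripts of the 42 genes hold sites for either seed was not analysed here.

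The signal of a gene is given relative to the 75th percentile of its array, which in scanner units was 93.6 for mock, 88.9 after *miR-139-5p* and 81.0 after *miR-139-3p*. A difference is the log2 of 1 such signal minus the log2 of another, averaged over the probes of the gene that were well above background on both arrays. A difference below -0.5 is called lower, the bound by which the study chose genes for *miR-139-3p*, and one above 0.5 is called higher. Signals of different genes depend on their probes and are not compared with each other. No member needed a bound in place of a value, since every probe with a usable spot was well above background.

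After *miR-139-3p* transfection, 33 of the 41 members were lower than in mock and 0 were higher. Over all genes, 27.9% were lower (4339 of 15572) and 26.5% were higher (4129 genes), where 1196 of the 15572 have a bound in place of a value. The median difference of the members was -1.38, which is 38.3% of the mock signal, and the median of all genes was -0.05. Among the 13551 protein-coding genes with a value or bound, 4131 were lower and 3111 higher, with a median of -0.13. At the stricter bound of -1, 28 of the 41 members were lower, beside 11.8% of all genes. The lowest member was *ASF1B* at -2.61 and the highest *ORC4* at 0.15. Of the members, 40 were below 0, beside 8154 of the 15572 genes. The 8 members that did not pass the threshold were *PCNA*, *RFC1*, *RPA1*, *RPA3*, *DNMT1*, *ORC2*, *ORC4* and *ORC5*. Of these, *PCNA*, *RPA3*, *DNMT1* and *ORC2* passed it in some settings, each of them without scaling. In RNA from a whole culture, fewer cells in S phase and less RNA per cell cannot be told apart. *GINS2*, *CHAF1B* and *DNA2* are among the genes that the study selected on these arrays, so their direction is not independent evidence, and without them 30 of 38 members were lower, with a median of -1.16.

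**Figure D1:**
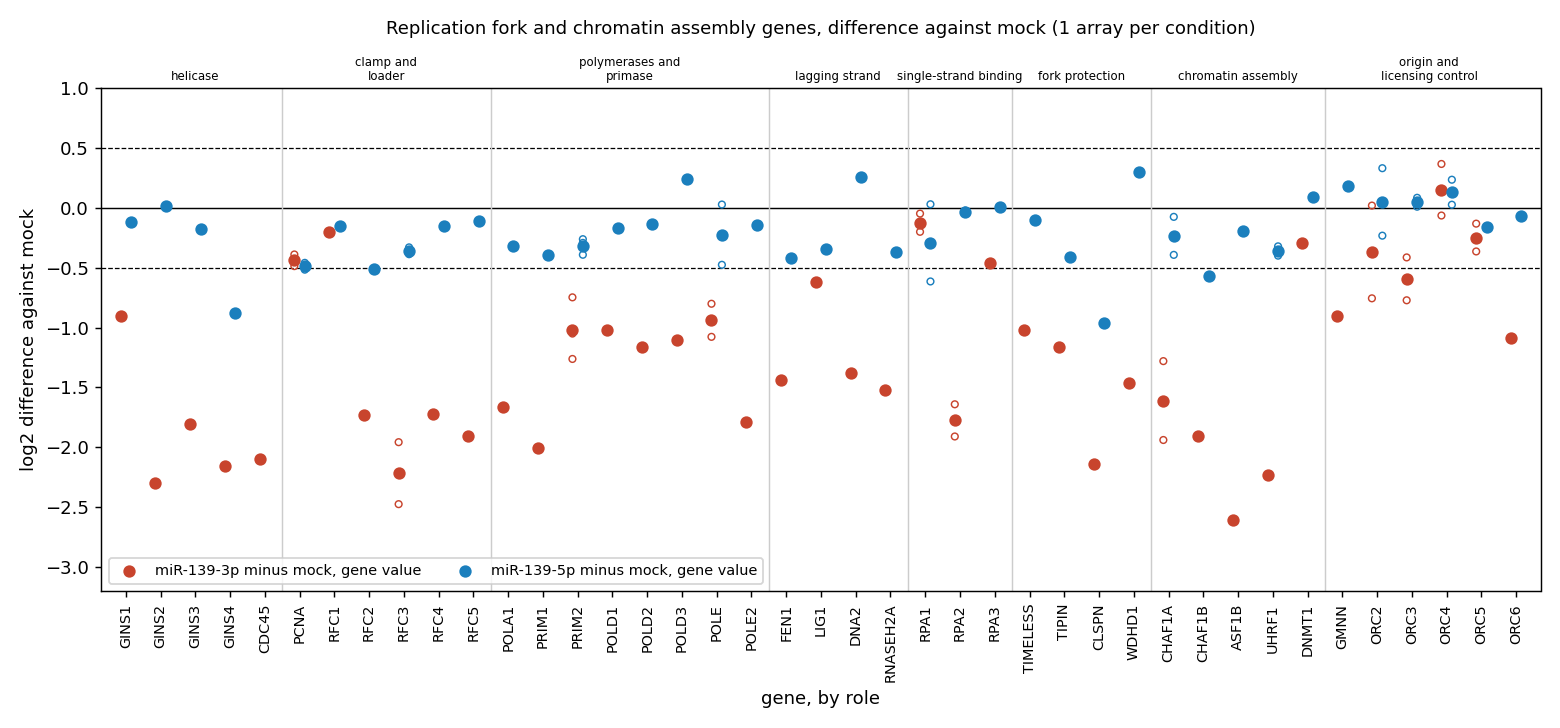
Log2 difference against mock for each member with a probe, grouped by role (x axis), with *miR-139-3p* in red and *miR-139-5p* in blue, 1 array per condition. Filled points are gene values, open points are the single probes of genes with several, and dashed lines mark -0.5 and 0.5; most red points lie below -0.5, down to -2.61 for *ASF1B*, as do 4 of the filled blue points.

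The members with 2 or more usable probes allow a check of the size of these differences. Over 11 such members, the median SD between probes was 0.25 for *miR-139-3p* against mock, and over 3684 genes of the whole array it was 0.28. On probes spotted 10 times, the median SD between spots was 0.05 for mock, 0.05 after *miR-139-5p* and 0.06 after *miR-139-3p*. *GINS2* is read by such a probe, and its log2 level was 3.90 ± 0.06 (SD, 9 spots) in mock, 3.91 ± 0.06 (SD, 10 spots) after *miR-139-5p* and 1.61 ± 0.08 (SD, 10 spots) after *miR-139-3p*. These errors are technical and contain no spread between cultures. Another 4 members had 10 spots, and in *CHAF1B*, *PRIM1*, *WDHD1* and *ORC6* the gap between mock and *miR-139-3p* was also many times the SD between spots.

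**Figure D2:**
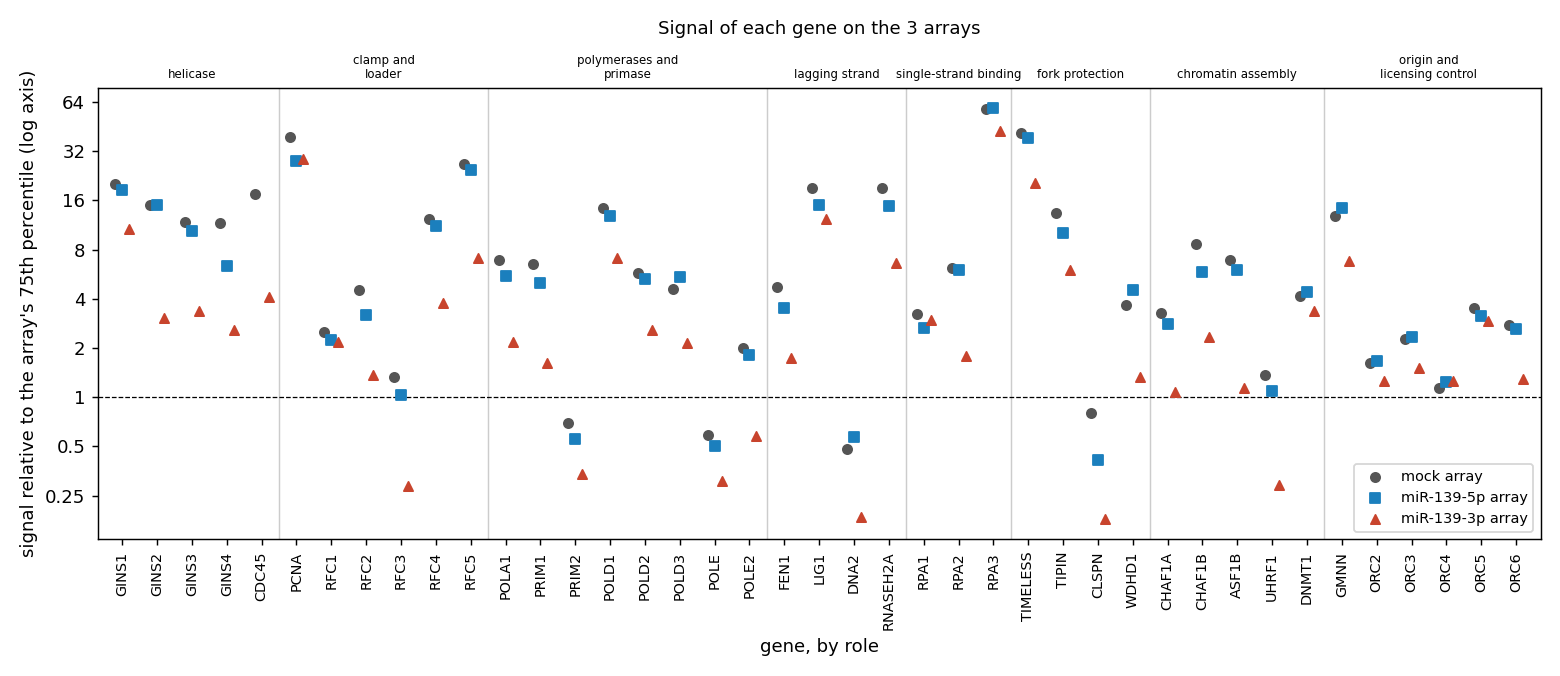
Signal of each member on the mock (grey circles), *miR-139-5p* (blue squares) and *miR-139-3p* (red triangles) arrays, as a multiple of the 75th percentile of the array, on a log axis. The dashed line is the 75th percentile; the *miR-139-3p* array was lowest for 37 of the 40 members measured on the 3 arrays and for 47.6% of 13902 genes over the whole array, and *CDC45* has no point for *miR-139-5p*.

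The helicase genes gave the lowest median of the 8 roles, at -2.10 over 5 genes, all of them lower with *miR-139-3p*. *CDC45*, which joins the MCM ring when an origin fires, had a signal of 17.6 in mock and 4.10 with *miR-139-3p*, a difference of -2.10. Its only spot on the *miR-139-5p* array was marked for its local background and was left out, under a rule that was widened after a first run in which it had a value. *GINS2* had signals of 14.9 in mock, 15.1 after *miR-139-5p* and 3.04 after *miR-139-3p*. *GINS3* had 11.7, 10.4 and 3.34 in the same order. In both genes the mock and *miR-139-5p* arrays were close and the *miR-139-3p* array stood apart. *GINS4* had 11.5 in mock, 6.30 after *miR-139-5p* and 2.59 after *miR-139-3p*, so that it was lower with each miRNA, at -0.87 and -2.16. *GINS1*, a subunit of the same complex, had 20.1 in mock, 18.5 after *miR-139-5p* and 10.7 after *miR-139-3p*, a difference of -0.90. *GINS1* lay 1.18 above the mean of the other GINS subunits on the log2 scale, and this gap ran from 1.05 to 1.23 over the processing settings, which is more than the SD between probes.

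The clamp and its loader were uneven. Of the 5 RFC genes, *RFC2*, *RFC3*, *RFC4* and *RFC5* had differences of -1.73, -2.22, -1.72 and -1.91 with *miR-139-3p*. These small subunits are shared by several clamp loaders. *RFC3*, the lowest of them, had signals of 1.32 in mock, 1.03 after *miR-139-5p* and 0.285 after *miR-139-3p*, and its probes gave -2.47 and -1.96. With normexp background correction, which adds an offset of 50, *RFC3* came to -1.06, nearer to 0 than *RFC2* at -1.32 in that setting. *RFC1*, the large subunit that makes the loader specific for PCNA, had 2.49 in mock, 2.23 after *miR-139-5p* and 2.17 after *miR-139-3p*. Its difference of -0.20 was within the SD between probes and came to 0.02 when arrays were scaled to reference genes. The gap between *RFC1* and the mean of the other RFC genes was 1.69, and 1.35 to 1.76 over the settings. All RFC genes except *RFC3* have 1 probe each. *PCNA* had signals of 38.8 in mock, 27.7 after *miR-139-5p* and 28.6 after *miR-139-3p*. Its differences of -0.49 and -0.44 did not pass the threshold in the main setting. Over the settings they ran from -0.56 to -0.37 and from -0.65 to -0.22, so each passed in some of them, and the difference between the transfected arrays ran from -0.26 to 0.32.

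All 8 measured polymerase and primase genes were lower with *miR-139-3p*, with a median of -1.13. *PRIM1*, the catalytic subunit of primase, had signals of 6.53 in mock, 4.98 after *miR-139-5p* and 1.63 after *miR-139-3p*, a difference of -2.00. *PRIM2*, its partner, was at -1.02, with 3 probes between -1.26 and -0.75. *POLA1*, the catalytic subunit of DNA polymerase alpha, had 6.86 in mock, 5.51 after *miR-139-5p* and 2.17 after *miR-139-3p*, a difference of -1.66. The 3 measured subunits of DNA polymerase delta among the members lay close to each other, with *POLD1* at -1.02, *POLD2* at -1.16 and *POLD3* at -1.10. *POLE2*, an accessory subunit of DNA polymerase epsilon, was at -1.79 and the catalytic *POLE* at -0.94. With normexp *POLE2* came to -1.15, while *POLE* and *PRIM2* came to -0.37 and -0.41 and were no longer past the threshold. Both probes of *POLE* are dim, but of the 3 of *PRIM2* only 2 are, and the third, with a signal of 4.22 in mock, gave -1.05 in the main setting.

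The 4 lagging strand genes were lower with *miR-139-3p*. *FEN1*, the flap nuclease, had signals of 4.69 in mock, 3.50 after *miR-139-5p* and 1.73 after *miR-139-3p*, a difference of -1.44. *RNASEH2A*, the catalytic subunit of RNase H2, which removes RNA from DNA, was at -1.53. *DNA2*, a nuclease and helicase, was at -1.38 but dim, with 0.479 in mock, 0.571 after *miR-139-5p* and 0.184 after *miR-139-3p*, and normexp brought it to -0.31. *LIG1*, the ligase that seals the fragments, was the nearest of the role to mock, with 19.0, 15.0 and 12.4 in the same order. Its difference of -0.62 did not pass the threshold under 5 of the 8 alternatives that change background or scaling.

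Within RPA, the complex that binds single-stranded DNA, *RPA2* stood apart. *RPA2* had signals of 6.14 in mock, 6.0 after *miR-139-5p* and 1.79 after *miR-139-3p*, a difference of -1.77, and its probes gave -1.91 and -1.64. *RPA1*, the large subunit that holds most of the DNA-binding domains, had 3.23, 2.64 and 2.96, and its difference of -0.12 turned positive under 2 of those alternatives. These signals average a bright probe, at 26.3 in mock, and a dim one, at 0.397. After *miR-139-5p* the bright probe of *RPA1* gave 0.03 against mock and the dim one -0.62. *RPA3*, the small subunit, had 57.9 in mock, 58.3 after *miR-139-5p* and 42.2 after *miR-139-3p*, a difference of -0.46. The gap between *RPA1* and *RPA2* was 1.65, with 1.44 to 1.71 over the settings.

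The fork protection genes were all lower with *miR-139-3p*, with a median of -1.31. *CLSPN*, the mediator of the replication checkpoint, had signals of 0.797 in mock, 0.410 after *miR-139-5p* and 0.181 after *miR-139-3p*, with differences against mock of -0.96 and -2.14. With normexp these came to -0.41, which is not past the threshold, and -0.70. *TIMELESS* had 41.5, 38.6 and 20.4, a difference of -1.02, and its binding partner *TIPIN* was at -1.16. *WDHD1*, which links polymerase alpha to the helicase, had 3.66 in mock, 4.51 after *miR-139-5p* and 1.33 after *miR-139-3p*, with a difference of -1.46.

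Of the 5 chromatin assembly genes, 4 were lower. *ASF1B*, a histone chaperone found in proliferating cells, had signals of 6.92 in mock, 6.04 after *miR-139-5p* and 1.14 after *miR-139-3p*, which left 16.4% of the mock signal. The CAF-1 subunits *CHAF1B* and *CHAF1A* were at -1.91 and -1.61, and *CHAF1A* came to -1.01 with normexp. *UHRF1*, which brings the maintenance methyltransferase to newly copied DNA, had 1.36 in mock, 1.09 after *miR-139-5p* and 0.291 after *miR-139-3p* on the probe measured on the 3 arrays, a difference of -2.23 that came to -1.17 with normexp. *DNMT1*, that methyltransferase, had 4.15, 4.43 and 3.38, and its difference of -0.30 did not pass the threshold. *UHRF1* and *DNMT1*, which act one after the other on newly copied DNA, thus stood far apart in their differences, each read from 1 probe. The brighter probe of *UHRF1*, at 7.63 in mock and 5.78 after *miR-139-5p*, had no usable spot on the *miR-139-3p* array.

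The origin and licensing genes had the second highest median of the roles, at -0.48 over 6 genes. *ORC6* was at -1.09, with signals of 2.75 in mock, 2.62 after *miR-139-5p* and 1.29 after *miR-139-3p*. *GMNN*, the inhibitor of licensing, had 12.8, 14.4 and 6.84, a difference of -0.90. *ORC2*, *ORC3*, *ORC4* and *ORC5*, core subunits of the origin recognition complex, were at -0.37, -0.59, 0.15 and -0.25. The probes of *ORC2* disagreed, at -0.76 and 0.02, and those of *ORC4* lay at 0.37 and -0.06. *ORC4* was below 0 without scaling and with scaling to spike-in RNA, and *ORC3* was not past the threshold under 3 of the alternatives that change background or scaling. *ORC1*, the remaining subunit and not a member, was at -2.46, lower than the mean of *ORC2* to *ORC5* by a gap of 2.19, which was 0.82 with normexp.

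After *miR-139-5p* transfection, 4 of the 40 members with a value were lower than in mock and 0 were higher. Over all genes, with 707 bounds among them, 12.3% were lower (1847 of 15018) and 10.7% were higher (1609 genes), so the share of members lower was near that of all genes. The median of the members was -0.17 and that of all genes -0.01. The 4 were *CLSPN* at -0.96, *GINS4* at -0.87, *CHAF1B* at -0.57 and *RFC2* at -0.51. With spike-in scaling only 2 members were lower, *CHAF1B* and *RFC2* no longer passing. With normexp *CLSPN* and *RFC2* did not pass but another member did, so that 3 were lower. The count rose to 5 without scaling and to 6 with the lowest probe of each gene. *GINS4* was the only 1 of the 4 that passed in every setting at this threshold. Of the 40, 30 were below 0 and 10 above it, beside 7643 of the 15018 genes below 0. The highest were *WDHD1* at 0.30, *DNA2* at 0.25 and *POLD3* at 0.24. Probes of 1 gene had a median SD of 0.15 in this comparison, and the differences of several members were within it, among them *GINS2* at 0.01, *RPA3* at 0.01 and *RPA2* at -0.03.

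**Figure D3:**
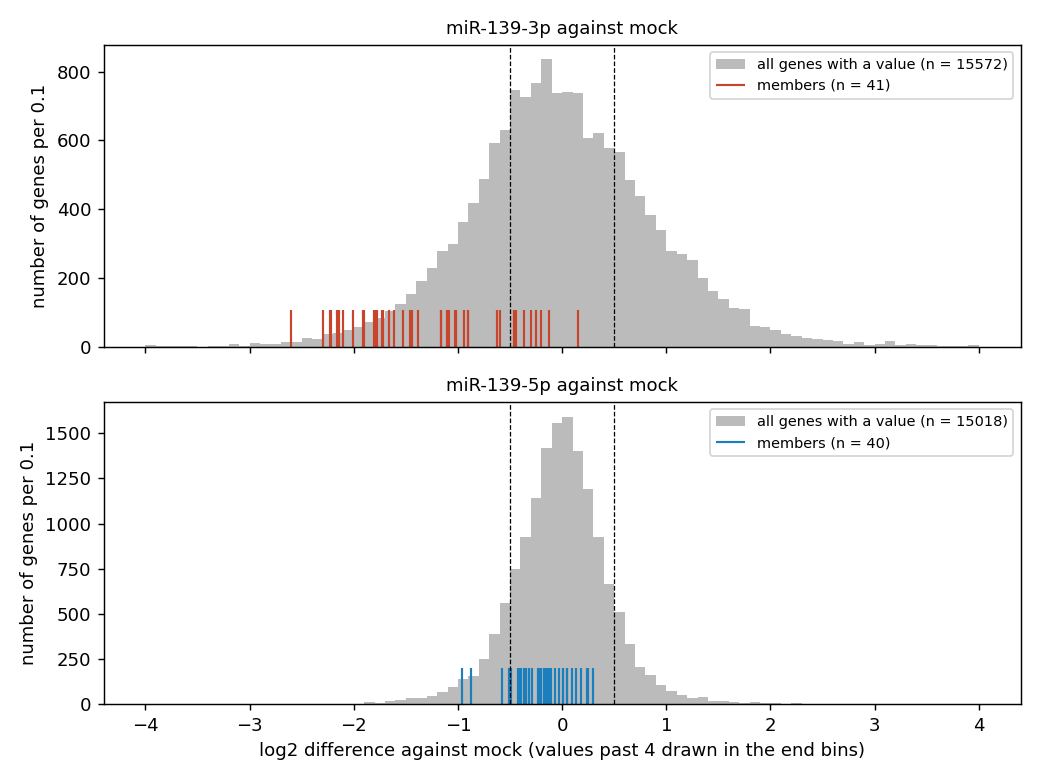
Number of genes per 0.1 of log2 difference against mock (grey) with the members drawn as lines, for *miR-139-3p* (top) and *miR-139-5p* (bottom), with dashed lines at -0.5 and 0.5. With *miR-139-3p* the members lie toward the lower end of the distribution, with a median of -1.38 beside -0.05, and with *miR-139-5p* near its middle, with a median of -0.17 beside -0.01.

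The arrays of the transfected cells were also set against each other, which asks how the arms of the hairpin differ without the mock array. With *miR-139-3p*, 31 of 40 members were lower than with *miR-139-5p* and 0 were higher. Over all genes, with 1392 bounds among them, 27.9% were lower (4303 of 15428) and 26.4% were higher (4075 genes). The median of the members was -1.12 and that of all genes -0.04. The lowest were *ASF1B* at -2.41 and *GINS2* at -2.31, and the highest *RPA1* at 0.17 and *PCNA* at 0.05. The place of *RPA1* rests on its dim probe, at 0.57, while its bright probe gave -0.23. The 3 comparisons share arrays in pairs, so they do not support each other.

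The number of lower and higher genes over the whole array depended on background correction and scaling. With normexp, 2933 genes were lower and 1552 higher for *miR-139-3p* against mock, and 630 lower and 517 higher for *miR-139-5p* against mock, all fewer than in the main setting. For *miR-139-3p* against mock, 48.8% of all genes past the threshold were higher, and this share ran from 34.2% without scaling to 64.5% with scaling to reference genes. The median of all genes moved by -0.21 without scaling, by -0.19 with spike-in scaling, by 0.14 with the percentile taken over probes detected on the 3 arrays and by 0.23 with reference genes. These 4 settings add 1 constant to every gene of a comparison, so the distance between the median of the members and that of all genes, -1.33, is kept by construction. With normexp it was -1.05. The number of members higher was 0 in every setting run.

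**Figure D4:**
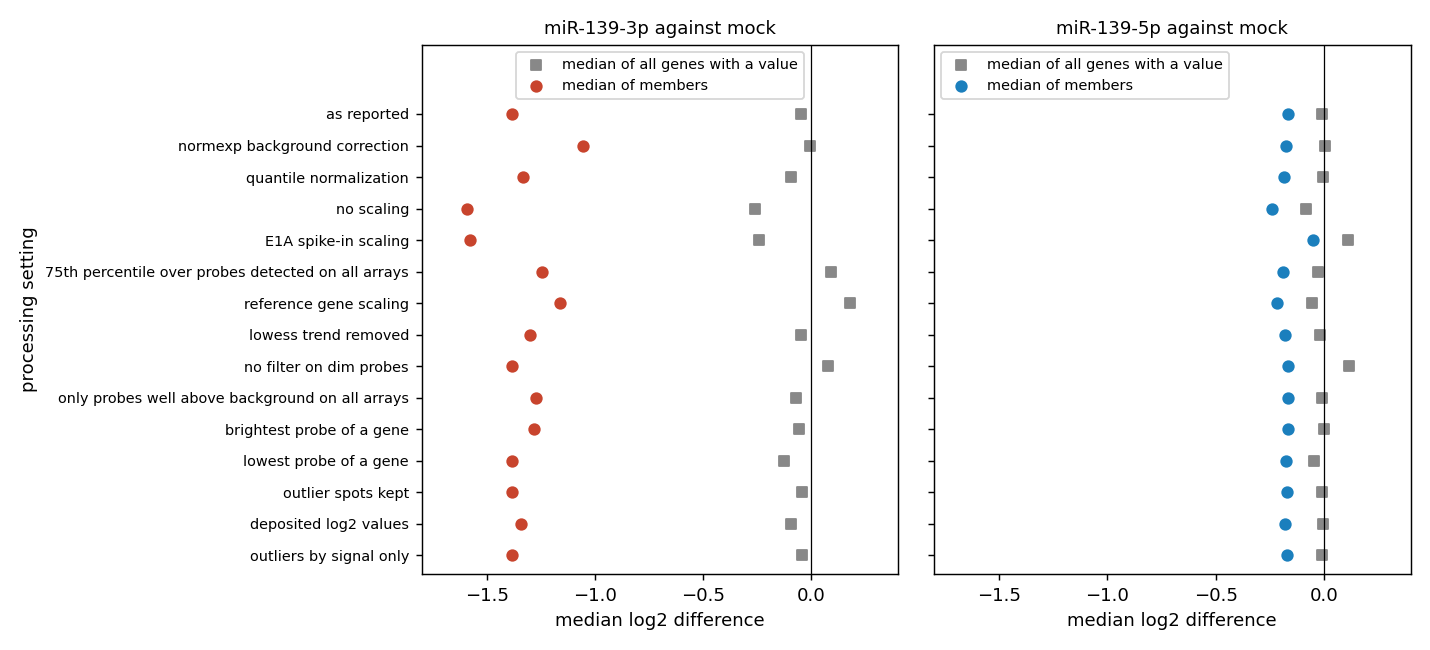
Median log2 difference of the members (circles) and of all genes with a value or bound (grey squares) under each processing setting, for *miR-139-3p* (left) and *miR-139-5p* (right) against mock. With *miR-139-3p* the circles lie between -1.59 and -1.06 and the squares between -0.26 and 0.18.

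Another 40 genes of replication and chromatin assembly that are not members were listed as well. Of the 38 with a value, 30 were lower with *miR-139-3p* than in mock, beside 27.9% of all genes. Of the same 38, 1 was higher, beside 26.5% of all genes, and their median was -0.99. The lowest were *MCM2* at -2.92, *ORC1* at -2.46, *TOP2A* at -2.29, *TICRR* at -2.04 and *DSCC1* at -1.95. With normexp *ORC1*, *TICRR* and *DSCC1* came to -1.03, -1.13 and -1.08, so only *MCM2* and *TOP2A* kept their places among the lowest. *MCM2*, a subunit of the helicase ring, had signals of 10.5 in mock, 6.43 after *miR-139-5p* and 1.39 after *miR-139-3p*. *MCM2*, *ORC1* and *HELLS* are also among the genes the study selected on these arrays, and without them 27 of 35 were lower, with a median of -0.90. The highest were *ASF1A* at 0.55, *SSBP1* at 0.27, *TONSL* at 0.20, *DONSON* at 0.02 and *CHTF8* at -0.15. *ASF1A* is the paralog of *ASF1B* that also serves histone exchange outside replication, and SSBP1 binds single-stranded DNA in mitochondria. *ASF1A* was dim, with 0.138 in mock, 0.192 after *miR-139-5p* and 0.202 after *miR-139-3p*, and it was not past the threshold under some settings, the lowest value being 0.17. *TONSL* took either sign, depending on the probe and the scaling, from -0.88 to 0.76. *DONSON* and *CHTF8* also took either sign under some scalings, and the 2 probes of *CHTF8* gave -0.87 and 0.57. With *miR-139-5p*, 4 of 39 were lower, beside 12.3% of all genes, and 3 higher, beside 10.7%, with a median of -0.06.

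Of 15 cell cycle genes, 14 had a value. Of these, 11 were lower after *miR-139-3p*, beside 27.9% of all genes, and 1 was higher, beside 26.5%. *TOP2A*, at -2.29, is on this list and also on that of the other replication genes. *MKI67*, a marker of cycling cells, was also selected by the study, and without it 10 of 13 were lower. It had signals of 4.08 in mock, 4.36 after *miR-139-5p* and 0.873 after *miR-139-3p*. *E2F1*, which drives transcription of replication genes, had 3.90, 3.13 and 0.837. The single higher gene was *CDKN1A*, the inhibitor of cyclin-dependent kinases also known as p21, with 0.557 in mock, 0.283 after *miR-139-5p* and 1.71 after *miR-139-3p*, so that it stood at 1.62 after *miR-139-3p* and at -0.97 after *miR-139-5p*. With normexp these came to 0.94 and to -0.38, which is not past the threshold. The part that the share of cycling cells had in the members' values was not tested. Among 11 reference genes, 3 were lower after *miR-139-3p*, beside 27.9% of all genes. They were *PGK1* at -0.83, *B2M* at -0.72 and *GAPDH* at -0.55, and the median of the 11 was -0.14. *GAPDH* was not past the threshold with scaling to reference genes, nor with the percentile taken over probes detected on the 3 arrays. With *miR-139-5p* none of the 11 was past the threshold. Among marker genes of leukocytes, endothelium and fibroblasts, *PTPRC*, *CDH5*, *VWF* and *PDGFRB* were dim and lay above mock with *miR-139-3p*, at 1.26, 1.00, 1.05 and 0.94, and *CD3E* had only a bound, of 0.44. *COL1A1* lay at -0.61 after *miR-139-3p* and at 1.41 after *miR-139-5p*, and *PECAM1* and *COL1A2* had no value. The part of these genes in the results was not tested.

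A promoter window of 300 bases in RefSeq (GRCh38.p14), from 250 bases before the transcription start site to 50 after it, was found for 37 of the 42 members, since *GINS4*, *POLD3*, *DNA2*, *RPA2* and *RPA3* are not in the table. The windows were searched on both strands for the E2F motif, written as TTTCCCGC, TTTCGCGC, TTTGCCGC or TTTGGCGC, and for the CCAAT box, written as CCAAT. The E2F motif was in 17 of the 47 windows of members (36.2%) and in 3.31% of all 35116 windows. Among the 22199 windows of protein-coding genes the share was 4.10%. The CCAAT box was in 25 of the 47 windows (53.2%) and in 34.6% of all windows. Counted by gene, 16 of the 37 members (43.2%) held the E2F motif in a window, beside 3.99% of 27305 genes, and 22 of the 37 (59.5%) held the CCAAT box, beside 39.7%. Of the 15843 protein-coding genes, 855 held the E2F motif and 6676 the CCAAT box.

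The windows below are shown because their genes differed from mock to different extents while holding the same kind of motif. Each has 30 bases that end before the start site, with the motif in capitals.
GINS2: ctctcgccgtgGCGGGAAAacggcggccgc
RFC3: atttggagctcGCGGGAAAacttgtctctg
UHRF1: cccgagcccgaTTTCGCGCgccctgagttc
POLA1: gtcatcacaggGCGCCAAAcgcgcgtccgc
LIG1: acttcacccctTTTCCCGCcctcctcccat
PCNA: cagcgtcagggGCGGGAAAaggcgtgcgtt
The first lies at chr16:85688967-85688996 on the minus strand, with its motif from -31 to -24 counted from the start site. That of *RFC3* lies at chr13:33818083-33818112 on the plus strand, with its motif from -55 to -48. That of *UHRF1* lies at chr19:4909973-4910002 on the plus strand, with its motif from -160 to -153, and the window of another start site of the gene has a motif from -14 to -7 of that site. That of *POLA1* lies at chrX:24693770-24693799 on the plus strand, from -137 to -130. That of *LIG1* lies at chr19:48170440-48170469 on the minus strand, from -114 to -107. That of *PCNA* lies at chr20:5126663-5126692 on the minus strand, from -59 to -52. The motif of *GINS2*, *RFC3* and *PCNA* is the same word on the strand opposite to the gene, while their differences with *miR-139-3p* were -2.30, -2.22 and -0.44.

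Members with and without the motif were then compared. The 15 measured members with an E2F motif had a median difference of -1.16 after *miR-139-3p*, with 13 of them lower, while the 21 without it had a median of -1.44, and 16 of them were lower. Members with the motif ran from -2.30 for *GINS2* to -0.30 for *DNMT1*, and those without it from -2.61 for *ASF1B* to 0.15 for *ORC4*. A match is a run of letters and not a measured binding site, and a window without one says nothing of other sequences.

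**Figure D5:**
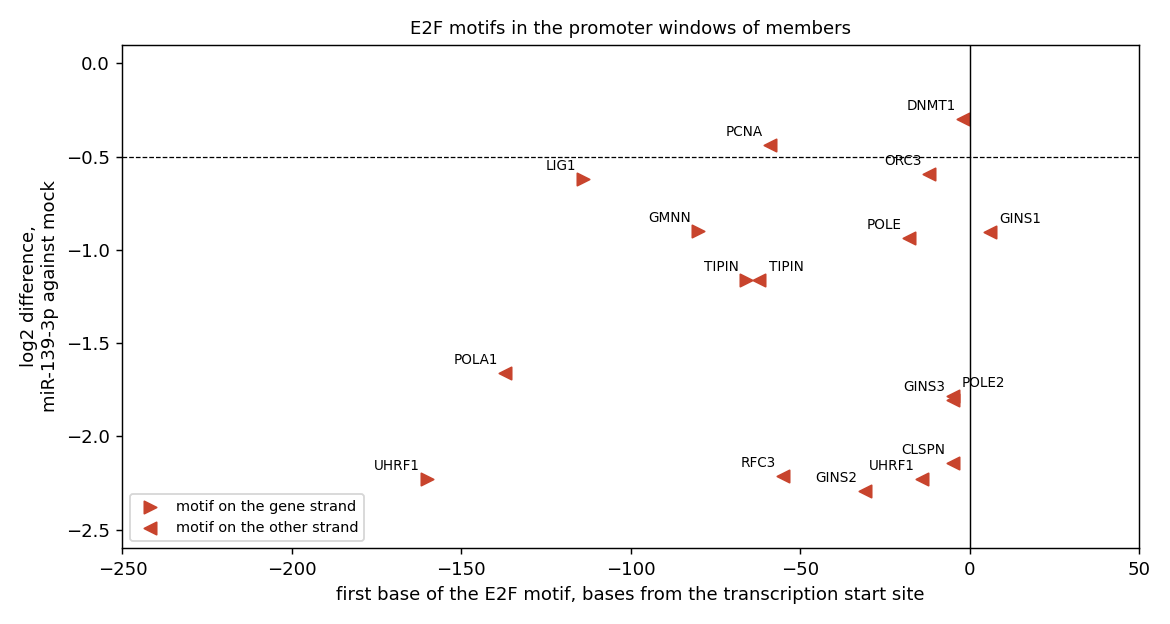
Position of each E2F motif in the promoter windows of members, as the distance of its first base from the transcription start site (x axis, bases), and the log2 difference of the gene with *miR-139-3p* against mock (y axis), with the strand shown by the direction of the triangle. Most motifs lie within 70 bases of the start site, at every size of difference from -2.30 to -0.30.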

How the data were processed

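For each spot the authors deposited an intensity read by Agilent Feature Extraction 12.1.1.1, background subtracted and without normalization between arrays, and for each probe a log2 value. The deposited log2 values were those of quantile normalization, since 96.1%, 95.3% and 93.4% of probes on the mock, 5p and 3p arrays came within 0.05 of signals normalized that way.

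Processed signals were put on the log2 scale, and the log2 of the 75th percentile over the 60901 spots other than controls was subtracted. Spots marked as outliers in signal or local background were left out, 614 from mock, 935 after *miR-139-5p* and 1526 after *miR-139-3p*, of which 3, 6 and 6 were spots of members. A first run left out only outliers in signal. The rule was widened after its results had been seen, to match how these files had been processed before. Under both rules 33 of 41 members were lower for *miR-139-3p* against mock, while the genes with a value or bound numbered 15957 in the first run and 15572 after it.

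Spots of a probe were averaged, and a probe counted as well above background where at least 50% of its spots did. Of spots other than controls, 49.9%, 48.1% and 53.1% were well above background in the same order, and 0 were saturated. A gene lacking such a probe on 1 of 2 compared arrays was given a bound, and on both no value. Genes were named from RefSeq accessions through the annotation of GRCh38.p14, which matched 31104 of 58201 probes, 31087 of them with a usable spot.

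The genes named are all members by role, the 5 lowest and 5 highest of the other replication genes with *miR-139-3p*, reference genes, cell cycle genes and cell type markers. The members and lists were chosen with earlier results of these data known. In total 16 alternatives were run, 2 of them chosen after seeing the data. The steps were tested on simulated data. Python 3.11.15 with numpy 2.4.6, pandas 2.3.3, statsmodels 0.14.6 and matplotlib 3.10.9 was used, with R 4.3.3 and limma 3.58.1 for normexp. Protein sequences were not given, so a planned search for PCNA-binding motifs was not run.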

Additional observations from a re-analysis of the deposited data

How the results depend on the processing

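No paired analysis was possible because each condition had 1 array, and no result here is a test. A median or the value of a gene was called moved past 0.28 for *miR-139-3p* against mock, 0.15 for *miR-139-5p* against mock and 0.26 between the transfected arrays, which are the median SDs of probes within genes. A count was called moved where it differed by more than 1.5 times. With normexp, the median of members was -1.06 for *miR-139-3p* against mock and -0.86 between the transfected arrays, and the added offset of 50 draws differences toward 0 by construction. Between the transfected arrays the median was -1.43 with spike-in scaling and -0.85 with reference genes, as both shift every gene alike. With *miR-139-5p* against mock, 2 members were lower with spike-in scaling, which shifts all genes by 0.12, and 0 at a threshold of 1. Fewer genes pass a stricter threshold by construction, and at 1 also 19 of the other replication genes were lower with *miR-139-3p*. In the other settings the counts and medians of members were not moved, and the number of members lower with *miR-139-3p* ran from 28 at the threshold of 1 and 30 with normexp to 37 without scaling, and was 30 without the genes the study chose. Over all genes, the counts that moved were, for *miR-139-3p* against mock, 4129 higher to 1552 with normexp. For *miR-139-5p* against mock, 1847 lower went to 630 with normexp and 1212 with spike-in scaling, and 1609 higher to 517, 2427 with spike-in scaling and 2651 without the filter on dim probes. Between the transfected arrays, 4303 lower went to 2847 with normexp, 6538 with spike-in scaling and 2775 with reference genes, and 4075 higher to 1585 with normexp and 2665 with spike-in scaling. At a threshold of 1 all these counts fall by construction, to 1842 lower and 1921 higher for *miR-139-3p* against mock, 357 and 288 for *miR-139-5p* against mock, and 1853 and 1977 between the transfected arrays. The cause was not tested beyond the shifts and the offset named. Of 1693 values of single members under the alternatives, 1555 were not moved. Of the rest, 62 grew in size, 66 shrank and 10 changed sign, and 0 of those past the threshold did so. Leaving out genes the study chose, and keeping spots with an outlying local background, were chosen after seeing the data. For *miR-139-5p* against mock, 46.6% of all genes past the threshold were higher, 33.9% without scaling and 66.7% with spike-in scaling. Between the transfected arrays the share was 48.6%, and ran from 29.0% with spike-in scaling to 67.8% with reference genes. *DNA2*, *CLSPN*, *POLE* and *PRIM2* had signals in mock below the 75th percentile, and their differences with *miR-139-3p* were nearer to 0 with normexp.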
